A study of Petunia x hybrida with 22 samples.

Results

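H3K9ac, the acetylation of lysine 9 on histone H3, was compared between evening and morning in the corolla of the garden petunia (Petunia × hybrida, cultivar Mitchell), whose white flowers are scented at night. The corolla is the ring of fused petals, and it makes and releases the floral scent. Chromatin immunoprecipitation followed by sequencing (ChIP-seq) gave 4 H3K9ac libraries, replicates 1 and 2 at 7AM and replicates 1 and 2 at 7PM. All plants were of 1 cultivar in a greenhouse with lights on from 6AM to 8PM, so that 7AM lay early and 7PM late in the light period. The labels describe the replicates as biological and give no plant age, flower stage or number of plants pooled. The places studied are all islands of the deposited H3K9ac lists. An island is a run of 200 bp windows. Its reads as a whole differed between the 7AM and 7PM libraries of 1 replicate number. There were 39159 such islands on 1494 scaffolds, of 125384 islands for all 4 histone marks of the study.

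H3K9ac is written by histone acetyltransferases such as GCN5 and removed by histone deacetylases, and in plants it lies around the start of transcribed genes. It usually accompanies H3K27ac, the acetylation of lysine 27 on the same histone, whereas H3K4me3 marks gene starts and H3K36me3 marks transcribed gene bodies. In Arabidopsis, H3K9ac at several clock genes follows the time of day. No gene annotation or genome sequence was used here, so places are given by scaffold and position as the deposited lists number them, counted from 1. The build is not given in the sources used here. The input libraries have no values in the lists, so that the level of a place over input was not tested.

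Replicate 1 had 11507185 reads in its 7AM library and 13031572 in its 7PM library, and replicate 2 had 12998900 and 15757663. In these libraries 3 reads correspond to 0.190 to 0.261 CPM (reads scaled to a library of 1000000). Islands hold few reads: the median in the higher of the 2 libraries ran from 23 for islands lower in replicate 2 to 52 for islands higher in replicate 2. One library had 0 reads in 100 islands. The lists hold changed islands only, with authors' folds from 2.00006 upwards and an FDR of at most 0.00942, so the values just outside the threshold are unknown and shares of all acetylated places cannot be given. The interval of a ratio below covers the counting of reads only.

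The 2 replicates listed different amounts of H3K9ac change. In replicate 1 the 21714 islands lower at 7PM covered 38.8 Mb and held 12.9% of the reads of the 7AM library and 4.68% of those of the 7PM library, which is 3.34 and 1.21 CPM per kb. The 5699 islands higher at 7PM in replicate 1 covered 5.99 Mb, with 0.577% of the 7AM and 1.54% of the 7PM reads (0.963 and 2.57 CPM per kb). Replicate 2 had the larger area on the other side. Its 6415 higher islands covered 13.1 Mb with 1.53% of the 7AM and 3.82% of the 7PM reads (1.17 and 2.92 CPM per kb), and its 5331 lower islands covered 6.54 Mb with 1.29% and 0.485% (1.97 and 0.742 CPM per kb). By covered length, the share lower at 7PM was 86.6% for replicate 1 and 33.3% for replicate 2.

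The deeper the island, the further the replicates parted. In replicate 1 the share lower at 7PM was 73.6% among 5950 islands with fewer than 20 reads in the higher library, 85.3% among 4784 islands with 50 to below 100 reads and 98.0% among 1454 islands with 200 reads or more. In replicate 2 the same classes gave 87.3% of 1680, 19.9% of 1770 and 5.39% of 779. Each replicate's own low-count islands were thus mostly lower, whereas its most-read islands were almost all lower in replicate 1 and almost all higher in replicate 2. No test was made of these shares, because each replicate has 1 library per time. A two-sided exact permutation test of 2 against 2 libraries cannot go below p = 0.333.

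**Figure D1:**
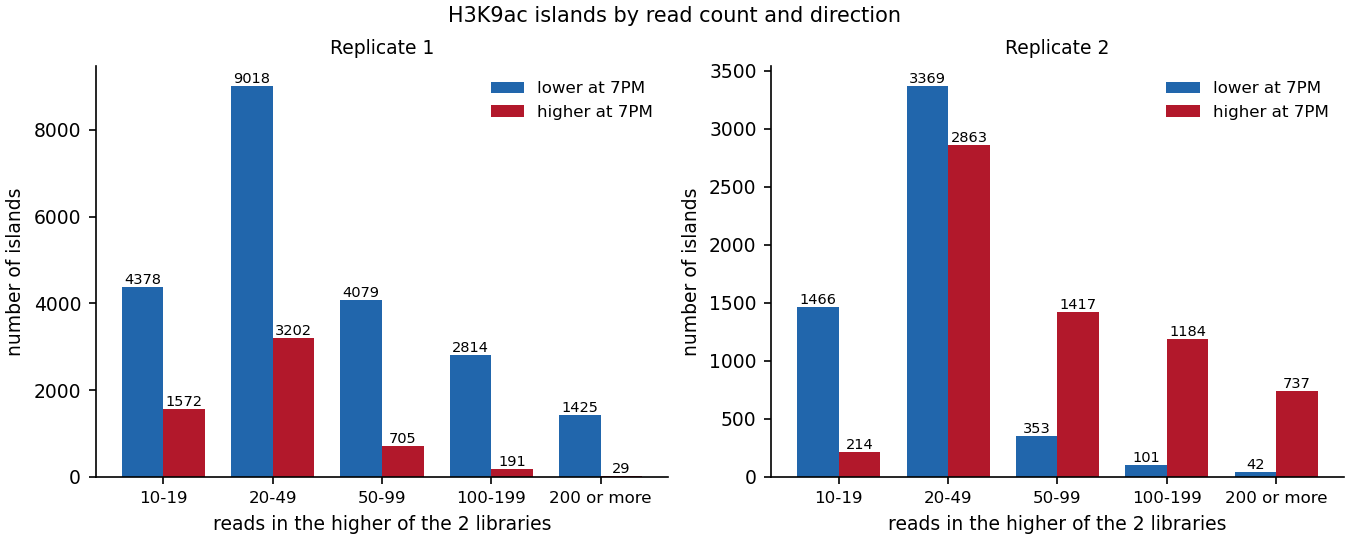
Number of H3K9ac islands (y axis) by reads in the higher of the 2 libraries (x axis) for replicate 1 (left) and replicate 2 (right), with different y scales. Bars show islands lower (blue) and higher (red) at 7PM; at 200 reads or more there were 1425 lower and 29 higher islands in replicate 1 against 42 and 737 in replicate 2.

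Strong islands of one kind were found again and others were not. Of the 42 lower islands of replicate 2 with 200 reads or more, 40 were also listed as lower in replicate 1 and none as higher. From 100 to below 200 reads it was 91 of 101, from 50 to below 100 reads 242 of 353, and with fewer than 20 reads 210 of 1466 (14.3%). Higher islands of replicate 1 showed the same gradient: 24 of the 29 with 200 reads or more were also higher in replicate 2, 76 of 191 from 100 to below 200 reads, 88 of 705 from 50 to below 100 reads, and 60 of 1572 (3.82%) with fewer than 20 reads. The reverse look gave small shares at every depth, with 157 of 1425 lower islands of replicate 1 and 89 of 737 higher islands of replicate 2 found again at 200 reads or more. Thus at 200 reads or more each replicate's less frequent direction was largely contained in the other replicate's list, and its more frequent direction was not. For the higher islands of replicate 1 this did not hold below 200 reads. The other list's length enters these shares.

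The size of the change gave a second gradient in 2 of the 4 lists. Islands higher in replicate 2 by 2- to 3-fold were listed as lower in replicate 1 at 511 of 5335 places (9.58%) and as higher at 202 (3.79%). By 4- to 8-fold the order was turned, with 13 of 336 opposite (3.87%) and 104 the same (31.0%), and at 8-fold or more 13 of 18 were the same and 0 opposite. Islands lower in replicate 1 were found again at 3.84% (2- to 3-fold, 539 of 14022), 17.2% (4- to 8-fold, 493 of 2860) and 21.6% (8-fold or more, 73 of 338). Their opposite listings went from 3.21% to 1.43% and to 0.592% in the same order. The lower islands of replicate 2 showed no such gradient, with 27.6% of 3906 found again at 2- to 3-fold and 21.0% of 477 at 4- to 8-fold. At 8-fold or more it was 12 of 54. The higher islands of replicate 1 also lacked one, with 7.08% found again at 2- to 3-fold, 8.82% at 3- to 4-fold, 9.98% at 4- to 8-fold and 4 of 59 (6.78%) at 8-fold or more.

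**Figure D2:**
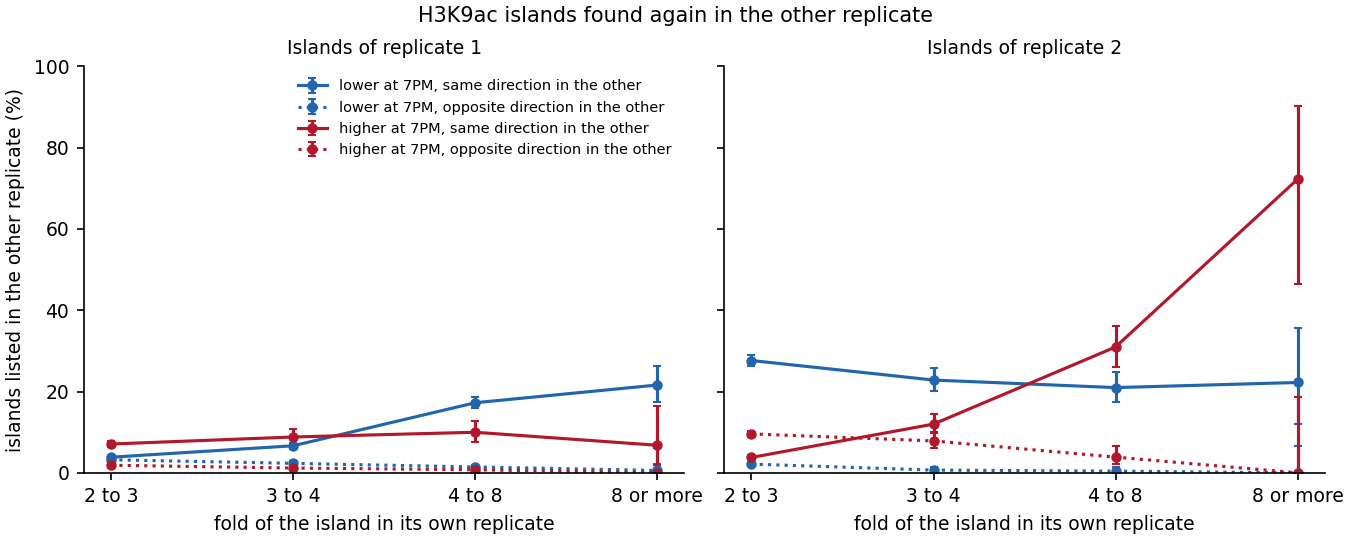
Share of H3K9ac islands that overlapped a listed island of the other replicate (y axis, percent) by the authors' fold in their own replicate (x axis), for islands of replicate 1 (left) and replicate 2 (right). Solid lines are the same direction, dotted lines the opposite one, bars are 95% exact binomial intervals, and the highest point is the 72.2% of the 18 islands of replicate 2 that were higher by 8-fold or more.

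Islands of the 2 replicates that overlapped by at least 1 bp were joined into 36579 regions. Of these, 34140 had islands of 1 replicate only: 19710 lower and 5171 higher in replicate 1, and 3843 lower and 5416 higher in replicate 2. Regions with 1 direction in each replicate numbered 2424, and 15 regions held both directions within a replicate and were set aside. Among the 2424, 1352 were lower in both replicates, 404 were higher in both, 576 had a lower value in replicate 1 and a higher one in replicate 2, and 92 had the reverse. The direction was the same at 72.4% (95% exact binomial interval 70.6 to 74.2, with regions taken as independent). With the balance of directions that these 2424 regions had in each replicate, and no association, it would be 55.7%. Islands with exactly the same borders in both replicates gave a like value, 129 of 181 (71.3%).

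Agreement rested on the size of the change here too. Where the smaller of the 2 folds lay from 2 to 3, 1467 of 2113 regions had the same direction (69.4%). From 3 to 4 it was 192 of 214 (89.7%), and at 4-fold or more in both replicates all 97 of 97 agreed, 58 lower and 39 higher. Among the 598 regions with 50 reads or more in the higher library of each pair, the corresponding counts were 397 of 471, 83 of 83 and 44 of 44. The log2 folds of the replicates correlated across the 2424 regions with Pearson's r = 0.58 and Spearman's rho = 0.54, and across the 598 with r = 0.90 and rho = 0.85. These are descriptions across regions, which share libraries and are not independent replicates, and the threshold leaves a gap around 0.

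**Figure D3:**
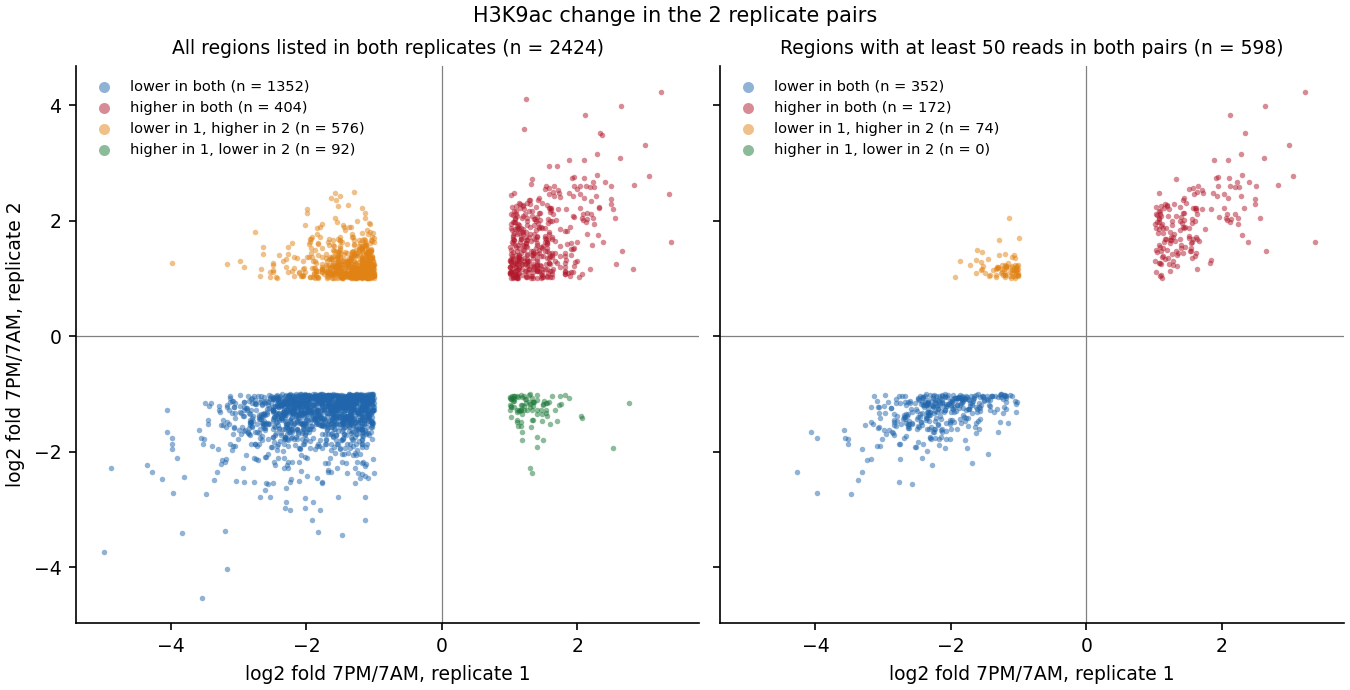
log2 fold of 7PM over 7AM in replicate 1 (x axis) and replicate 2 (y axis) for the 2424 H3K9ac regions listed in both replicates (left) and the 598 with 50 reads or more in the higher library of each pair (right); each point is a region, and the empty cross is the authors' threshold. No region higher in replicate 1 and lower in replicate 2 reached 50 reads, while 74 regions of the opposite kind did.

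Levels in the 4 libraries separated the classes. In the 1352 regions lower in both, the median level per length in replicate 1 was 2.64 CPM per kb at 7AM and 0.767 at 7PM, and in replicate 2 it was 2.00 and 0.740. The 7PM libraries were thus alike, and the 7AM level was higher in replicate 1 at 82.1% of the regions. The difference between 7AM and 7PM was larger in replicate 1 at 1035 of these regions (76.6%), with median log2 folds of −1.79 and −1.28. In the 404 regions higher in both, the median level went from 0.956 to 2.70 CPM per kb in replicate 1 and from 0.821 to 2.84 in replicate 2. Here the difference was larger in replicate 2 at 260 regions (64.4%), with median log2 folds of 1.40 and 1.59. These medians describe regions that the authors' threshold chose, and carry no test.

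The 576 regions with a lower value in replicate 1 and a higher one in replicate 2 had libraries of the same time that parted. The median level at 7AM was 2.17 CPM per kb in replicate 1 and 0.769 in replicate 2, and at 7PM it was 0.815 and 1.95. The 7AM library of replicate 1 was above that of replicate 2 at 569 of the 576 regions, and the 7PM library of replicate 2 was above that of replicate 1 at 567. The 92 regions of the other opposite kind showed the mirror image, with 0.869 and 2.37 CPM per kb at 7AM and 2.25 and 0.952 at 7PM. Opposite directions in the 2 replicates require libraries of the same time to part at 7AM, at 7PM or at both. These counts and levels thus follow in part from the choice of the class. The median reads in the higher library of replicates 1 and 2 were 29 and 38 for the first kind and 22 and 23 for the second. Regions lower in both had 49 and 32, and regions higher in both 40.5 and 82.5. The first kind was thus shallower than regions lower in both in replicate 1 only. Among all regions with at least 50 reads in both pairs, 352 were lower in both, 172 higher in both, 74 lower in replicate 1 and higher in replicate 2, and 0 the other way round.

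Whether the regions differed between 7PM and 7AM beyond the spread of the replicates was tested over all 2424 with edgeR's quasi-likelihood test, with the replicate number as a block. It called 0 lower and 0 higher regions at a Benjamini-Hochberg adjusted p under 0.05 (0% and 0% of those tested), with a smallest adjusted p of 0.105. Without adjustment, 851 regions were lower (35.1%) and 283 higher (11.7%) at p under 0.05, all of them among the regions listed with one direction in both replicates. DESeq2 called 356 lower (14.7%) and 140 higher (5.78%), and gave no adjusted p for 940 regions. Fitted on the 598 regions with at least 50 reads, edgeR called 316 lower (52.8%) and 155 higher (25.9%), and on the 1862 with at least 20 reads it called 0 and 0. A region passes such a filter through the library where it is high, and a fold of 2 in the same reads had already listed all 2424. The DESeq2 calls, the calls of the filtered fit and the unadjusted counts are thus no support for a change beyond that selection.

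The scaling moved directions as well as calls. TMM normalization over the selected regions raised every log2 fold by 1.29 in replicate 1 and by 0.59 in replicate 2, and median-of-ratios scaling by 1.46 and 0.72. The median fitted log2 fold of all 2424 regions was −1.24 with library totals. Each scaling moves all folds of a replicate alike, so the directions that turn are those of folds smaller than the shift. In replicate 1 these were 255 of the 1352 regions lower in both and 272 of the 576 of the first opposite kind under TMM, and 414 and 369 under median-of-ratios scaling. The directions below are those with library totals.

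The regions named next had 50 reads or more in the higher library of each pair and ranked first by the smaller of their 2 folds. All 8 named as lower in both were lower in H3K27ac in both of its replicates. So were 290 of all 352 regions lower in both with that many reads. On Peaxi162Scf03779 from 87601 to 92400, replicate 1 went from 314 morning to 31 evening reads and replicate 2 from 174 to 31. The level per length was 5.69 and 0.496 CPM per kb in replicate 1 and 4.78 and 0.703 in replicate 2, so the 7AM libraries stood apart from the 7PM ones. H3K9ac was 11.5-fold lower at 7PM in replicate 1 (95% counting interval 7.92 to 17.2) and 6.80-fold lower in replicate 2 (4.62 to 10.3).

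On Peaxi162Scf00774 from 325001 to 326600, reads went from 110 to 7 in replicate 1 and from 80 to 14 in replicate 2, which is 17.8-fold (8.35 to 45.3) and 6.93-fold (3.90 to 13.2) lower. On Peaxi162Scf00092 from 1565201 to 1568400 the 2 replicates differed in size. Reads went from 409 to 23 in replicate 1 and from 221 to 52 in replicate 2, which is 20.1-fold lower (13.2 to 32.1) in replicate 1 and 5.15-fold lower (3.79 to 7.11) in replicate 2. The intervals do not overlap, and H3K27ac there went from 473 to 25 reads and from 183 to 7. On Peaxi162Scf00481 from 487601 to 490200 the replicates gave 6.199-fold (104 to 19 reads; 3.78 to 10.7) and 6.204-fold (87 to 17 reads; 3.66 to 11.1) lower values. The others were on Peaxi162Scf00439 at 672201 to 677200, Peaxi162Scf00188 at 669801 to 674200, Peaxi162Scf00798 at 230201 to 233800 and Peaxi162Scf00839 at 169201 to 173200. Over the 8, the mean log2 fold ran from −2.25 ± 0.041 (SD, n = 2 replicate pairs), on Peaxi162Scf00839, to −3.34 ± 0.89, on Peaxi162Scf00774.

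The 8 regions named as higher in both were all higher in H3K27ac in both of its replicates. None was listed with 1 direction in both replicates of H3K4me3 or H3K36me3, which only 2.68% and 3.50% of all 36579 regions were. Those on Peaxi162Scf00825, Peaxi162Scf00058, Peaxi162Scf00314 and, from 345601, Peaxi162Scf00002 were listed as lower in replicate 1 of at least 1 methylation mark. Of all 172 regions higher in both with 50 reads or more in each pair, 95 were higher in both H3K27ac replicates. On Peaxi162Scf00825 from 229201 to 230600, replicate 1 went from 7 morning to 84 evening reads and replicate 2 from 6 to 159. That is 10.6-fold higher (95% counting interval 4.92 to 27.2) and 21.9-fold higher (9.82 to 60.5), and H3K27ac reads there went from 18 to 158 and from 8 to 99. On Peaxi162Scf00655 from 132601 to 134600 the level went from 0.559 to 4.88 CPM per kb in replicate 1 and from 0.462 to 4.92 in replicate 2, so that libraries of the same time were close.

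Scaffold Peaxi162Scf00002 held 2 of the 8. At 345601 to 351000, reads went from 45 to 323 in replicate 1 (6.34-fold higher, 4.63 to 8.86) and from 26 to 516 in replicate 2 (16.4-fold, 11.04 to 25.3), so that the size differed between replicates by more than the counting error. At 316201 to 321000 they went from 29 to 241 (7.34-fold, 4.98 to 11.2) and from 40 to 306 (6.31-fold, 4.53 to 9.01). On Peaxi162Scf00314 from 862801 to 865800 the folds were 5.83 (3.91 to 9.02) and 6.19 (4.40 to 8.92), with 28 to 185 and 38 to 285 reads. The others were on Peaxi162Scf00058 at 152201 to 153800, Peaxi162Scf00061 at 1477001 to 1478000 and Peaxi162Scf00740 at 114201 to 116400. Mean log2 folds of the 8 ran from 2.54 ± 0.18 (SD, n = 2 replicate pairs), on Peaxi162Scf00740, to 3.73 ± 0.71, on Peaxi162Scf00825.

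All 16 of these regions had an edgeR adjusted p of 0.105 in the fit over 2424 regions. They were ranked by fold in the same reads, so smaller p-values under other settings would restate that choice and are not given.

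**Figure D4:**
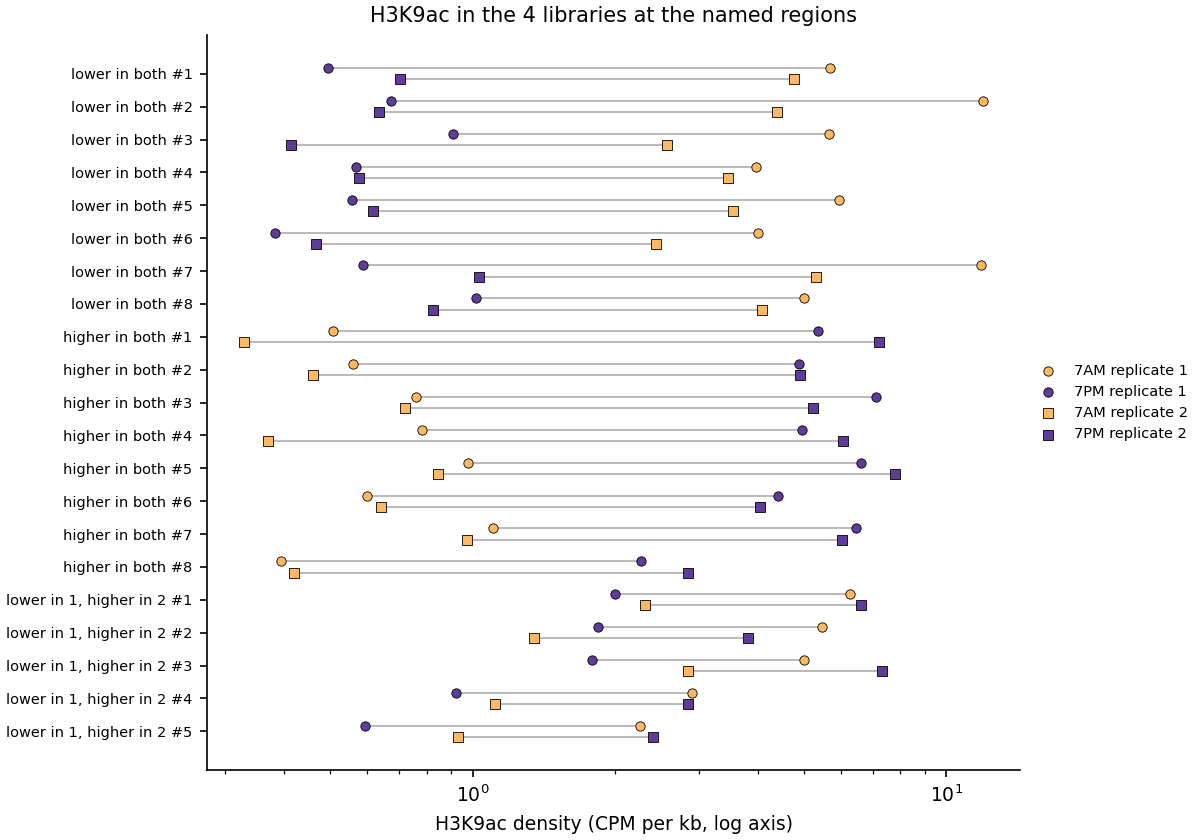
H3K9ac level per length (x axis, CPM per kb, log axis) at the 21 regions named by rank, with a line joining the 7AM (orange) and 7PM (violet) library of replicate 1 (circles) and of replicate 2 (squares). In the top 16 regions both replicates move the same way, and in the lowest 5 the 7AM circle lies near the 7PM square.

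The 5 named regions with opposite directions were all lower at 7PM in replicate 1 but higher in replicate 2. On Peaxi162Scf00274 from 615801 to 617000, reads went from 72 to 26 in replicate 1, 3.14-fold lower (95% counting interval 1.98 to 5.12), and from 36 to 125 in replicate 2, 2.86-fold higher (1.96 to 4.27). In replicate 1 the level was 6.26 CPM per kb at 7AM and 1.995 at 7PM, and in replicate 2 it was 2.31 and 6.61. On Peaxi162Scf00450 from 751001 to 752200, reads went from 63 to 24 and from 21 to 72. In both regions the 2 replicates lay on opposite sides of a ratio of 1 by more than the counting error. Both regions were lower in H3K36me3 in both of its replicates, with 191 to 58 and 104 to 26 reads at the first and 60 to 18 and 32 to 5 at the second. The other named regions of this kind had no H3K36me3 direction. Of all 576 regions of this kind, 28 (4.86%) were lower in both H3K36me3 replicates, against 3.46% of all H3K9ac regions.

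The other opposite regions were on Peaxi162Scf00374 at 576201 to 577400 (69 to 28 and 37 to 115 reads), Peaxi162Scf00100 at 849801 to 852200 (67 to 24 and 29 to 90) and Peaxi162Scf01209 at 9401 to 11600 (57 to 17 and 17 to 53). None of the 5 had 1 direction in both replicates of H3K27ac, which 4.34% of the 576 regions of this kind and 9.21% of all H3K9ac regions had. The edgeR log2 folds of the 5 lay between −0.28 and −0.033, with adjusted p-values of 1. With TMM all 5 kept opposite directions, and with median-of-ratios scaling that on Peaxi162Scf00374 turned higher in both replicates. For regions higher in replicate 1 and lower in replicate 2 the rank rule found none. The first by fold, chosen after the values were seen, was on Peaxi162Scf01279 at 100801 to 101200, with 1 read at 7AM and 12 at 7PM in replicate 1 (ratio 10.6, 1.57 to 453) and 18 and 5 in replicate 2 (ratio 0.229, 0.0665 to 0.640).

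H3K27ac comes from separate immunoprecipitations, and its lists took no part in choosing the H3K9ac regions. Of all 36579 H3K9ac regions, 3070 (8.39%) overlapped a place lower in both H3K27ac replicates and 299 (0.817%) one higher in both. Of the 1352 regions lower in both H3K9ac replicates, 644 (47.6%) were lower in H3K27ac and 0 higher. Of the 404 regions higher in both, 147 (36.4%) were higher in H3K27ac and 1 lower. For regions listed in 1 H3K9ac replicate, 11.6% of those lower in replicate 1 only were lower in H3K27ac (2296 of 19710), and 2.24% of those lower in replicate 2 only (86 of 3843). Of those higher in replicate 1 only 0.541% were higher in H3K27ac (28 of 5171), and of those higher in replicate 2 only 2.09% (113 of 5416). Regions of different lengths meet other lists at different rates, with median lengths of 2000 and 2200 bp for regions lower and higher in both and 800 to 1600 bp for those of 1 replicate.

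**Figure D5:**
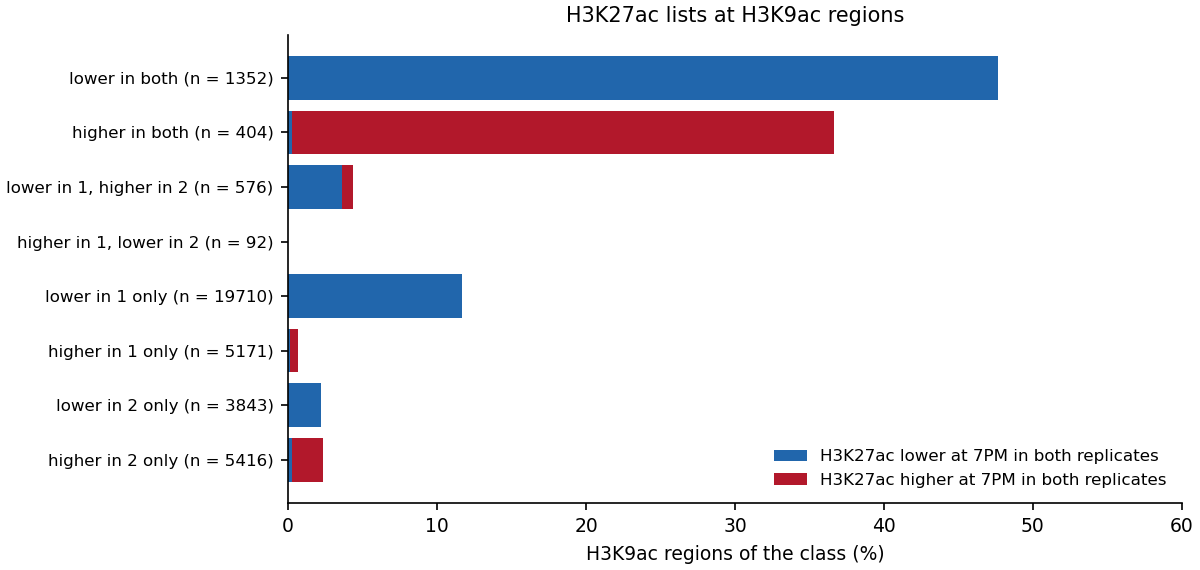
Share of H3K9ac regions (x axis, percent of the class) that overlapped a place lower (blue) or higher (red) at 7PM in both H3K27ac replicates, for the 8 classes of H3K9ac direction (y axis, with the number of regions). The 2 classes with one direction in both H3K9ac replicates show 47.6% and 36.4%, and the 92 regions higher in replicate 1 and lower in replicate 2 show none.

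Where the H3K9ac replicates disagreed, few places were listed in H3K27ac. Of the 576 regions of the first opposite kind, 21 were lower in both H3K27ac replicates (3.65%) and 4 higher (0.694%). Set against single H3K27ac replicates, 91 were lower and 10 higher in H3K27ac replicate 1, and 52 were lower and 32 higher in H3K27ac replicate 2. For regions higher in H3K9ac replicate 2 only, H3K27ac replicate 1 was near an even split, with 211 lower and 231 higher, while H3K27ac replicate 2 had 139 lower and 706 higher. For regions lower in H3K9ac replicate 1 only the split was 5440 lower and 56 higher in H3K27ac replicate 1 and 4499 and 237 in replicate 2. Over all H3K9ac regions it was 6843 lower and 793 higher in H3K27ac replicate 1 and 6040 and 1481 in replicate 2. The labels do not say whether a replicate number marks material shared between marks. What a shared number contributes was not tested.

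The methylation marks were compared in the same way. H3K4me3 was lower in both of its replicates at 978 of the 36579 regions (2.67%) and higher at 4 (0.0109%), and H3K36me3 was lower at 1264 (3.46%) and higher at 15 (0.041%). In regions lower in both H3K9ac replicates, H3K4me3 was lower at 83 (6.14%) and H3K36me3 at 46 (3.40%), and neither was higher at any. In regions higher in both, H3K4me3 was lower at 12 and higher at 1, and H3K36me3 was lower at 12 and higher at 1. The share lower, 2.97% for each mark, was near that of all regions, and places listed for either methylation mark were nearly all lower over all regions too, so these counts are no result about the class. For regions higher in replicate 2 only, 125 were lower and 0 higher in H3K4me3, and 214 (3.95%) lower and 2 higher in H3K36me3.

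Of the 12 regions with more H3K9ac and less H3K36me3 at 7PM, the first by fold lay on Peaxi162Scf00074 from 932601 to 935000. H3K9ac reads went from 8 to 46 in replicate 1 and from 30 to 190 in replicate 2, while H3K36me3 reads went from 143 to 54 in its replicate 1 and from 81 to 16 in its replicate 3. The H3K36me3 place, from 932601 to 933600, covered only part of the region. So did the H3K9ac island of replicate 1, with 600 bp. On Peaxi162Scf00058 from 2626401 to 2629800, H3K9ac reads went from 54 to 234 and from 48 to 398, H3K27ac was also higher (log2 fold 2.19 ± 0.096, SD, n = 2 replicate pairs), and H3K4me3 and H3K36me3 were lower with mean log2 folds of −1.27 and −1.58. The H3K4me3 place on Peaxi162Scf00058, from 2627801 to 2629400, and the H3K36me3 place, from 2627001 to 2629200, also covered only part of the region. Among regions higher in both H3K9ac replicates, the single one with less H3K27ac was on Peaxi162Scf00912 from 219401 to 225200. H3K9ac reads there went from 5 to 25 and from 98 to 259. The H3K27ac place, from 217601 to 220600, covered only part of the region. Its H3K27ac reads went from 48 to 26 and from 21 to 11. These 3 regions were chosen after their values were seen.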

How the data were processed

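Groups and replicate numbers came from sample titles. Per the labels' protocols, formaldehyde (1%) crosslinked the tissue before sonication and immunoprecipitation. The submitters' processing notes name cutadapt, Bowtie2 and SICER 1.1, with settings not given in the sources used here. The deposited lists, 4 per mark, have 13 unnamed columns in the layout of a SICER comparison of 1 7PM with 1 7AM library. In each list the authors give read counts, the same counts as CPM, the fold (a ratio) and p-values with FDR for each direction. The direction of each list is that of its label. The authors' fold equalled the ratio of counts after adding 1 read to each, scaled by library totals, at all 39159 H3K9ac islands (tolerance 1e-06 relative). The 6 input samples were not used.

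Library totals are counts divided by CPM. Island counts were summed per region and library. Borders differ between replicate pairs, so the summed length of a region can differ as well, and levels are given per kb of listed islands. Log2 folds add 1 read to each count; fold ratios of named regions add none, with exact conditional binomial 95% intervals. Reads were not tagged as single molecules. The test was edgeR 4.0.16 (R 4.3.3) with robust quasi-likelihood dispersion, library totals and the replicate block, which was used because each list pairs libraries of 1 number; DESeq2 1.42.0 was an alternative. Both the joining of islands and the edgeR test were tested on simulated data. The counts simulated for edgeR had no disagreement between replicates and a smaller spread than these data. They therefore do not check the test in the present setting. Python 3.11.15 was used for the rest.

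Named regions had 50 reads or more in the higher library of each pair and were ranked by the smaller absolute log2 fold: 8 lower in both, 8 higher in both and up to 5 of each opposite kind, plus the longest and most-read island of each list and the 3 scaffolds with most regions of one direction in both. The rule, classes and alternatives were chosen with earlier results of these data known.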

Additional observations from a re-analysis of the deposited data

How the results depend on the processing

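The edgeR counts of 0 lower and 0 higher regions depended on scaling, tool and read filter. TMM gave 54 lower and 345 higher, median-of-ratios scaling 27 and 359, DESeq2 with the replicate block 356 and 140, and a minimum of 50 reads 316 and 155, or 127 and 209 with TMM as well (added after the data were seen). Counts of 0 and 0 were also found with no replicate block (585 lower and 175 higher at an unadjusted p under 0.05), at 20 reads, with 50% reciprocal overlap, an FDR of 1e-05, and 1 region per scaffold. The counts were also 0, with no block, without each library in turn (0 to 0 calls in each direction), where the lone library is taken to vary like the others. Deviations of same-numbered libraries correlated with r = −0.32 over 2424 regions, and a crossed pairing, added after the data were seen, called 0 and 0. The island lengths of a region can differ between the replicates, and the counts were not scaled by length. In the fits with no block and in the crossed one, these lengths enter the spread. The counts of 0 from those fits are thus no check of the main fit. All these fits used regions that the same reads had already listed as changed. Their calls are therefore no support for a change beyond that selection.

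The share of regions with the same direction was 87.6% at 50 reads, 75.0% at 20 reads, 75.3% with reciprocal overlap, 79.2% at an FDR of 1e-05, 92.7% at 3-fold and 69.4% with 1 region per scaffold. In the same order of filters (50 reads, 20 reads, FDR, 3-fold, covered length), the share lower at 7PM was 89.99%, 80.8%, 85.0%, 83.5% and 86.6% in replicate 1, and 12.9%, 38.4%, 26.0%, 56.9% and 33.3% in replicate 2, so replicate 2 crossed an even split at 3-fold. The median log2 fold was −1.58 over regions lower in both and 1.51 over regions higher in both. Adding 10 reads gave −1.19 and 1.07, a minimum of 50 reads gave 1.67 for the higher ones, and without replicate 1 or 2 the values were −1.28 to −1.79 and 1.40 to 1.59.

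Among H3K9ac regions with an H3K27ac direction, the share lower in H3K27ac was 0.676% for regions higher in both and 0% with 50 reads or 50% coverage. Using single H3K27ac replicates it ranged from 2.27% to 2.50% there, from 99.5% to 99.8% for regions lower in both, from 61.9% to 90.1% for regions lower in replicate 1 and higher in replicate 2 (84.0% with both; 100% of 1 region at 50 reads), from 95.0% to 98.98% for those lower in replicate 1 only, from 83.2% to 94.2% for lower in replicate 2 only, from 13.1% to 24.2% for higher in replicate 1 only, and from 16.4% to 47.7% for higher in replicate 2 only (3.37% at 50 reads). Over all H3K9ac regions with an H3K27ac direction, the share lower was 91.1% with both H3K27ac replicates. With H3K27ac replicate 1 it was 89.6%, and with H3K27ac replicate 2 it was 80.3%. For classes lower in H3K9ac in either replicate, shares near or below these are no result about the class. The classes higher in both replicates or in 1 replicate only lay below these shares, at 0.676%, 17.6% and 11.7% with both H3K27ac replicates. No test was made of these differences. Adding 10 reads moved 18 of the 41 named values by more than the SD between replicates. The mean log2 fold changed sign at 4 regions with opposite directions in the replicates, where it lies near 0: from 0.29 to −0.18 on Peaxi162Scf01279, from 0.040 to −0.11 on Peaxi162Scf00307, from −0.11 to 0.15 on Peaxi162Scf00382 (from 618801) and from −0.087 to 0.12 on Peaxi162Scf00005 (from 2218001). Causes were not tested.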

Other observations

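Regions of one direction in both H3K9ac replicates were found on 729 scaffolds, and the direction of their nearest neighbours of that kind was counted. Of the 1352 lower regions, 224 had the nearest such region within 10 kb, and in 217 of these (96.9%) that neighbour was lower too. Of the 404 higher regions, 51 had one within 10 kb, and in 44 (86.3%) it was higher, while lower regions made up 77.0% of all. The 576 regions of the first opposite kind had 25 such neighbours within 10 kb, 13 lower and 12 higher. No test was made of these shares. Neighbours can be pieces of 1 domain, with a median gap of 1.4 kb between a lower region and its neighbour within 10 kb. Peaxi162Scf00439 held the most regions of one direction, 19 lower and 2 higher between 71001 and 972400, followed by Peaxi162Scf00002 (6 lower and 8 higher), Peaxi162Scf00003 (10 and 4) and Peaxi162Scf00089 (11 and 3) with 14 each.

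Long islands followed the more frequent direction of each replicate. Islands of 5 kb or more made up 866 of the lower islands of replicate 1 (3.99%) and 379 of the higher ones of replicate 2 (5.91%), against 21 higher in replicate 1 and 35 lower in replicate 2. In the authors' deposited table the longest lower island of replicate 1 covered 22.6 kb of Peaxi162Scf00084 from 262401 to 285000, with 1422 reads at 7AM and 742 at 7PM, and was not listed in replicate 2. The longest higher island of replicate 2 covered 18.2 kb of Peaxi162Scf00205 from 645801 to 664000, with 317 and 1011 reads, was not listed in replicate 1, and overlapped a place lower in both H3K27ac replicates. The longest lower island of replicate 2, also its most-read one, lay on Peaxi162Scf00320 from 174601 to 189000 with 665 and 391 reads, and that place was lower in replicate 1 and in H3K27ac as well. The most-read higher island of replicate 1, on Peaxi162Scf00959 from 199801 to 207200 (121 and 566 reads), was higher in replicate 2 and in H3K27ac as well. The most-read lower island of replicate 1, on Peaxi162Scf00811 from 75601 to 87000 (1466 and 642 reads), and the most-read higher island of replicate 2, on Peaxi162Scf00141 from 322801 to 336400 (386 and 1090 reads), were listed in 1 replicate only, as was the longest higher island of replicate 1, on Peaxi162Scf00394 from 1036801 to 1046600 (161 and 382 reads).

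Among the 576 regions that were lower in H3K9ac replicate 1 and higher in replicate 2, 4 lay over places higher in both H3K27ac replicates. That is 0.694%, against 0.817% of all H3K9ac regions. On Peaxi162Scf00005 from 2218001 to 2226400, H3K9ac reads went from 20 to 8 in replicate 1 and from 110 to 314 in replicate 2, and H3K27ac reads from 109 to 309 and from 32 to 148. On Peaxi162Scf00166 from 945001 to 946400, H3K9ac reads went from 12 to 5 and from 5 to 40, with a ratio interval in replicate 1 (0.102 to 1.12) that includes 1. H3K27ac reads there went from 18 to 80 and from 7 to 44. The others lay on Peaxi162Scf00382, at 618801 to 622600 (12 to 4 and 39 to 121 H3K9ac reads, with H3K27ac islands of both directions in H3K27ac replicate 1) and at 335201 to 338600 (30 to 15 and 24 to 95). At all 4 the H3K9ac island of replicate 1 was shorter than that of replicate 2. Lengths were 600 and 8400 bp on Peaxi162Scf00005 and 400 and 1200 bp on Peaxi162Scf00166. On Peaxi162Scf00382 they were 400 and 3800 bp at the first place and 1800 and 2200 bp at the second. The opposite H3K9ac directions thus concern stretches of different length. These 4 regions were chosen after their values were seen.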
